A study of Mus musculus with 6 samples.

Results

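The genes of the mouse major histocompatibility complex (MHC) and of antigen presentation were followed in RNA sequencing of isolated pancreatic islets. They were chosen by symbol, as every row of the count table whose name begins with H2- together with B2m, Cd74, Ciita, Nlrc5, Tap1, Tap2, Tapbp, Psmb8, Psmb9, Psmb10 and Erap1, which gave 54 of the 24421 genes listed. By class, 33 were class I chains (B2m included), 11 were class II chains (Cd74 included), 9 were processing and control genes, and 1, H2-Ke6, is an enzyme gene named for its place in the region. The 3 knockout-labelled libraries came from islets of C57BL/6J mice with the genotype C57.DhpsloxP.MIP1-CreERT, and the 3 control libraries from islets of C57BL/6J mice labelled only as control. Dhps encodes deoxyhypusine synthase, loxP sites mark the stretch that Cre removes, and MIP1-CreERT is a tamoxifen-inducible Cre driven by the mouse insulin promoter, so that deletion is meant for β cells and not for the other cells of the islet. The labels give neither age nor sex, do not say whether the controls carry Cre or loxP sites or received tamoxifen, and do not spell out the prefix HF in the sample titles. Nothing in them states that replicates are different animals; a p-value here therefore speaks to variation among these 6 libraries, some of which may be technical.

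MHC class I molecules pair a heavy chain with β2-microglobulin and show peptides from inside the cell to cytotoxic T cells. The peptides are cut by the proteasome, pumped into the endoplasmic reticulum by the Tap1 and Tap2 transporter, trimmed by Erap1 and loaded with the help of tapasin (Tapbp). MHC class II molecules show peptides from the endocytic route to helper T cells, are made mainly by macrophages, dendritic cells and B cells, and need the invariant chain Cd74, the peptide editor DM and its inhibitor DO. Nlrc5 and Ciita are the transactivators of class I and class II genes, and both classes respond to interferon-γ in many cell types, islet cells included.

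The libraries held 21027737 to 23249895 counts and 15954 to 16370 detected genes each. The labelled tissue was checked with 8 β cell markers, which summed to 365895 to 413982 CPM in knockout-labelled and 343865 to 465297 CPM in control libraries. Nearly all of this sum was Ins1 and Ins2, neither of them called (means 96909 and 290367 CPM in knockout-labelled, 91075 and 306578 CPM in control libraries). The log2 fold change was below 0 for 7 of the 8. By the test 4 were lower in knockout-labelled islets, Slc2a2, Ucn3, Slc30a8 and Nkx6-1. These 6 genes are named after their values were seen. Levels are given as CPM, the count scaled to a common library size by the TMM method. Of 15 macrophage and myeloid markers, 7 rose, and their sum was 315 to 414 CPM in knockout-labelled and 189 to 194 CPM in control libraries, with no marker at 0 in every library. The acinar sum was 18751 to 21246 CPM in knockout-labelled and 707 to 7746 CPM in control libraries, the lowest value being that of control library 3. Of the 10 acinar markers 9 were tested, and none was called. Knockout-labelled library 2 stood apart in lymphocyte genes. The sum of 7 B cell markers was 5.90, 71.4 and 15.03 CPM in knockout-labelled libraries 1, 2 and 3, against 14.5, 17.1 and 10.2 CPM in control libraries 1, 2 and 3. Dhps itself read 11.7, 12.7 and 11.4 CPM in knockout-labelled libraries, against 12.0, 13.4 and 12.3 CPM in control libraries (log2 fold change −0.07 ± 0.12 SE, adjusted p = 0.742). The labels do not say which exons the loxP sites flank, so a count over the whole gene does not show whether the deletion took place. Values per library are given below in the order 1, 2, 3 of each group.

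Of the 54 members, 28 passed the filter on low counts and were tested, 3 rose in knockout-labelled islets, none fell and 25 were not called. The members that rose were B2m, Tap1 and Tap2, which serve class I presentation. Over all 13736 genes tested, 4.14% rose and 2.63% fell at an adjusted p under 0.05 (quasi-likelihood test of edgeR, Benjamini-Hochberg method). The log2 fold change was above 0 for 24 of the 28 tested members, with a median of 0.43 beside 0.01 over all genes tested. A member that passed the filter only through the group in which it is high had to differ, so these counts describe the 28 and not all 54. The libraries of the 2 groups did not overlap for 6 members, 5 higher and 1 lower in knockout-labelled islets, while over all genes tested 16.9% were higher and 15.2% lower in every knockout-labelled library than in every control library. These are bulk islets, where fewer cells of a type and less RNA per cell cannot be told apart.

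**Figure D1:**
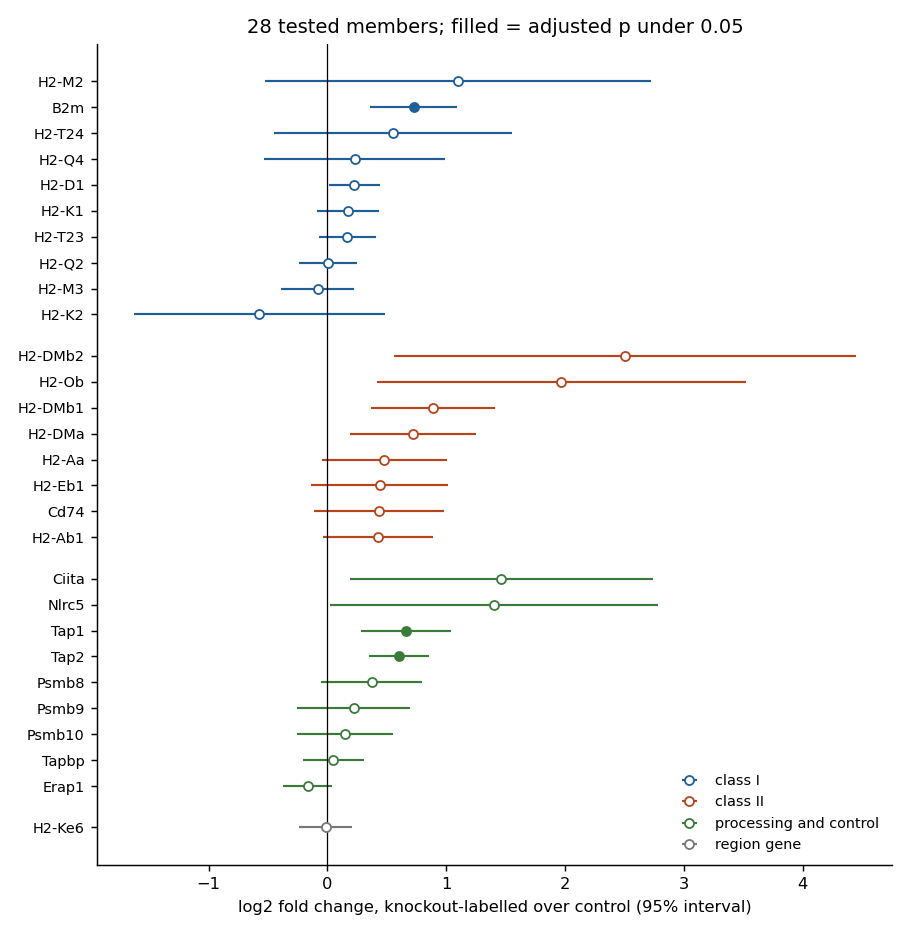
Log2 fold change, knockout-labelled over control, of the 28 tested members with 95% intervals, grouped by class and ordered by size; filled points had an adjusted p under 0.05. The filled points are B2m, Tap1 and Tap2, and all 8 class II points lie above 0 with wide intervals. The classical heavy chains H2-D1 and H2-K1 have small positive values, the interval of H2-D1 lying just above 0 and that of H2-K1 crossing it.

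The sequences before the start of 5 members are shown because class I and class II genes are known to be controlled through short motifs in this stretch. B2m, Tap1 and H2-DMb1 had the smallest p of their classes among tested members with an entry in the RefSeq promoter table, while H2-Aa and H2-Eb1 were added after their values were seen, as class II chains that moved together. Each is the 250 bases before the RefSeq gene start on build GRCm38.p6, read 5′ to 3′ on the gene's strand. Capitals mark every Y box (CCAAT, or ATTGG on the other strand), every interferon response element (GAAANNGAAA) and each X box core (GNAAC) that is followed by a Y box. B2m lies at chr2:122147437-122147686 (plus strand), Tap1 at chr17:34187306-34187555 (plus strand), H2-Aa at chr17:34287824-34288073 (minus strand), H2-Eb1 at chr17:34305617-34305866 (plus strand) and H2-DMb1 at chr17:34152941-34153190 (plus strand).
B2m: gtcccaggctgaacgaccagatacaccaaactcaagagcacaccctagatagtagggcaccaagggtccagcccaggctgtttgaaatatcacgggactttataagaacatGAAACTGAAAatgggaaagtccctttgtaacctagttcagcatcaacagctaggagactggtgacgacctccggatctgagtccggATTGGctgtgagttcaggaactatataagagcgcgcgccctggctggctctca
Tap1: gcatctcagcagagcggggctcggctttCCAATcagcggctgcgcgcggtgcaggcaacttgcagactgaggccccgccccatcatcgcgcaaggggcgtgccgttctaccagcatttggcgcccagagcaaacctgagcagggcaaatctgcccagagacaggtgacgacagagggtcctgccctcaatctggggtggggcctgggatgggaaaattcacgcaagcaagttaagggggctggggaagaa
H2-Aa: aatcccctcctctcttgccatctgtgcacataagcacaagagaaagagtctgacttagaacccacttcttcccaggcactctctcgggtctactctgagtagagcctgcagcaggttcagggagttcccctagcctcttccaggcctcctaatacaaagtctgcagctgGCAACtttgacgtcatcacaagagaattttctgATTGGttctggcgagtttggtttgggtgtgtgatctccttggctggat
H2-Eb1: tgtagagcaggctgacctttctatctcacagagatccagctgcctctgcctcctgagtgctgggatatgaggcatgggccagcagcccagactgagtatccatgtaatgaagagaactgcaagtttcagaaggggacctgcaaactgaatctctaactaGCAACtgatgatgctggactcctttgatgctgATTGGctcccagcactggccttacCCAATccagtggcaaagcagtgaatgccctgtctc
H2-DMb1: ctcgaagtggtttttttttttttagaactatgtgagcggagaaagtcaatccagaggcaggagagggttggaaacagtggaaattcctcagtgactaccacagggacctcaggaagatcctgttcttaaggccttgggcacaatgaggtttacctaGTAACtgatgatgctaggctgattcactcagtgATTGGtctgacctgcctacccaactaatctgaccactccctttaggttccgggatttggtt

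B2m carried an interferon response element at positions −139 to −130 from its start and a Y box at −53 to −49. In H2-Aa, H2-Eb1 and H2-DMb1 an X box core stood 15 to 35 bases upstream of a Y box read as ATTGG. In class II genes in general the X and Y boxes are bound by the RFX and NF-Y complexes, on which Ciita acts. An X box core followed by a Y box after 15 to 35 bases was in 6 of 9 class II windows, with 25 to 28 bases between them, in 0 of 25 class I windows and in 0 of 6 windows of processing genes. It was in 1.492% of all 32851 promoter windows of that length. X boxes spelled otherwise were not searched for, so class I and processing gene windows without this pair may still hold an X box. The letters GAAANNGAAA were in 3 class I windows, those of B2m, H2-T23 and H2-T22, and in 2.977% of all windows. Interferon elements spelled otherwise were not searched for. A window without a match, such as those of H2-K1 and H2-D1, may therefore still hold one. A Y box alone was in 34 of the 41 member windows and in 33.85% of all, and GNAAC alone, being short, was in 79.58% of all. RefSeq entries were found for 38 of the 54 members; H2-Ab1, Tap2, Ciita and Nlrc5 are among those without one. Both strands were searched for the single motifs, but the pair was sought only as GNAAC followed by ATTGG on the gene's strand. A window whose Y box reads only CCAAT on that strand, such as those of H2-M2 and H2-T23, could not hold the pair. The letters and the spacing were set after the sequences had been looked at. A match is therefore a description, and no match speaks only of these letters in this window.

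**Figure D2:**
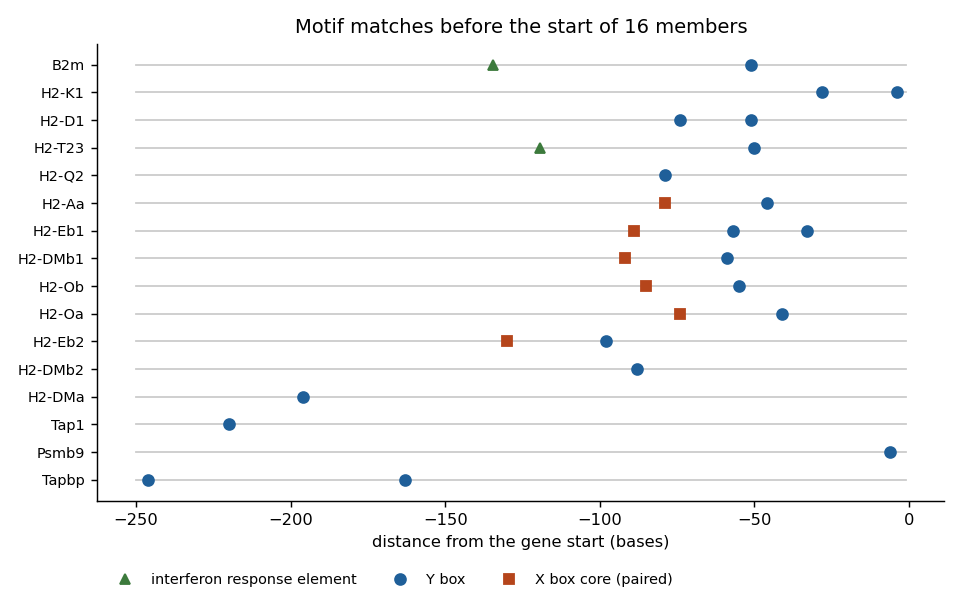
Motif matches in the 250 bases before a RefSeq start of 16 members, with the distance from that start in bases on the horizontal axis. For H2-DMa the window shown (chr17:34125268-34125517) precedes a start inside the gene. The H2-DMa window before the upstream start held no match. The pair of X box core (squares) and Y box (circles) recurs in class II members at like spacing. It was sought only as GNAAC before ATTGG on the gene's strand. The letters GAAANNGAAA (triangles) are seen for B2m and H2-T23, and interferon elements spelled otherwise were not searched for.

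Among class I genes, B2m rose and no heavy chain passed the test. B2m (chr2:122147687-122153082, 4 exons), which encodes the light chain that every class I molecule shares, had 182, 228 and 137 CPM in knockout-labelled libraries, against 116, 111 and 103 CPM in control libraries. The groups did not overlap, but knockout-labelled library 3 lay closer to the controls than to knockout-labelled library 2. The mean was 182 ± 45.7 CPM in knockout-labelled and 110.1 ± 6.74 CPM in control libraries (SD, n = 3 each), a log2 fold change of 0.73 ± 0.16 (SE, adjusted p = 0.0346 by edgeR). With 1 library left out at a time, B2m passed only without knockout-labelled library 3 (adjusted p = 0.0148), and the adjusted p was 0.0515 to 0.117 without knockout-labelled library 1 or 2 or any of the 3 control libraries. Its log2 fold change over those fits was 0.52 to 0.89.

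The classical heavy chains bind the peptide and are what cytotoxic T cells read. H2-K1 (chr17:33996012-34000333, minus strand) had 332, 383 and 369 CPM in knockout-labelled libraries, against 293, 327 and 340 CPM in control libraries, and the groups overlapped. Its log2 fold change was 0.18 ± 0.12 with an adjusted p of 0.373, and its 95% interval ran from −0.09 to 0.44. H2-D1 (chr17:35263094-35267497, plus strand) had 147, 161 and 166 CPM in knockout-labelled libraries, against 130, 133 and 142 CPM in control libraries. Every knockout-labelled library was above every control library for H2-D1, yet the difference was small and was not called (log2 fold change 0.23 ± 0.10, adjusted p = 0.171). Its 95% interval, not adjusted for the number of genes, ran from 0.01 to 0.44. Per kilobase of exon, B2m stood at 212 CPM in knockout-labelled and 128 CPM in control libraries, and H2-K1 at 219.5 CPM in knockout-labelled and 194 CPM in control libraries. H2-L is listed on the same stretch of the chromosome as H2-D1, and its exon model lies 99.6% within that of H2-D1. The H2-L row was at 0 in every library, so reads over the shared 1060 bases were given to H2-D1 or dropped. The sources used here do not say how such reads were assigned. With so few bases of its own, the H2-L row does not speak of a separate gene.

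The nonclassical class I chains, which show restricted sets of peptides or bind other receptors, gave no call. H2-T23, the mouse Qa-1 chain that natural killer cells read through an inhibitory receptor, had 56.9, 67.2 and 55.6 CPM in knockout-labelled libraries, against 52.8, 57.5 and 49.7 CPM in control libraries (log2 fold change 0.17, adjusted p = 0.349). H2-Q2 had 40.9, 48.5 and 51.1 CPM in knockout-labelled libraries, against 45.8, 50.1 and 44.6 CPM in control libraries, with a log2 fold change of 0.00 whose sign depended on the scaling. H2-M3, which presents formylated bacterial peptides, had 17.7, 19.5 and 21.99 CPM in knockout-labelled libraries, against 17.4, 21.8 and 23.5 CPM in control libraries (log2 fold change −0.08). For each of these the groups overlapped. H2-Q4, H2-T24, H2-K2 and H2-M2 were rarer, at 0.132 to 3.21 CPM in knockout-labelled and 0.208 to 2.73 CPM in control libraries. Their log2 fold changes were 0.23, 0.55, −0.57 and 1.10, none with an adjusted p under 0.371. The 10 tested class I members had a median log2 fold change of 0.20, and the 33 class I chains summed to 782, 914 and 806 CPM in knockout-labelled libraries, against 660.3, 707 and 709 CPM in control libraries. Without B2m the sum was 601, 686 and 669 CPM in knockout-labelled libraries and 544, 596 and 606 CPM in control libraries, where the groups overlapped.

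The other 23 class I rows did not pass the filter. Of these, 14 were at 0 in every library, most of them of the M10 and Q series, and a count of 0 allows up to 0.119 to 0.152 CPM a library, for counting error only. The remaining 9 (H2-Bl, H2-M10.2, H2-M5, H2-Q1, H2-Q10, H2-Q5, H2-T10, H2-T22 and H2-T3) had at most 14 counts in any library. Several of these rows overlap a near-identical row on the same strand. The exon models of H2-Q6 and H2-Q8, of H2-Q7 and H2-Q9 and of H2-T22 and H2-T9 share 93.2% to 100% of their bases, and together the 6 rows had 4 counts. Their levels are therefore uncertain, since reads that fit both rows may have been set aside.

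Among the genes that supply class I peptides, both subunits of the peptide transporter rose. Tap2 (chr17:34204479-34216321) had 76.0, 58.2 and 62.7 CPM in knockout-labelled libraries, against 41.5, 43.7 and 44.7 CPM in control libraries. The control libraries were close to each other and the groups were well apart. The log2 fold change was 0.60 ± 0.11 (adjusted p = 0.0225). Tap1 (chr17:34187556-34197225) had 21.4, 21.5 and 19.1 CPM in knockout-labelled libraries, against 10.6, 11.6 and 16.9 CPM in control libraries, a log2 fold change of 0.66 ± 0.17 (adjusted p = 0.0488). The groups did not overlap, but control library 3 came near to knockout-labelled library 3. Left out one at a time, Tap2 kept its call without control library 1, knockout-labelled library 2 or knockout-labelled library 3 (adjusted p = 0.0219 to 0.0416) and lost it without control library 2, control library 3 or knockout-labelled library 1 (0.0652 to 0.0834). Tap1 kept its call only without control library 3 (adjusted p = 0.0214), and had 0.0832 to 0.164 without control library 1 or 2 or any of the 3 knockout-labelled libraries.

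**Figure D3:**
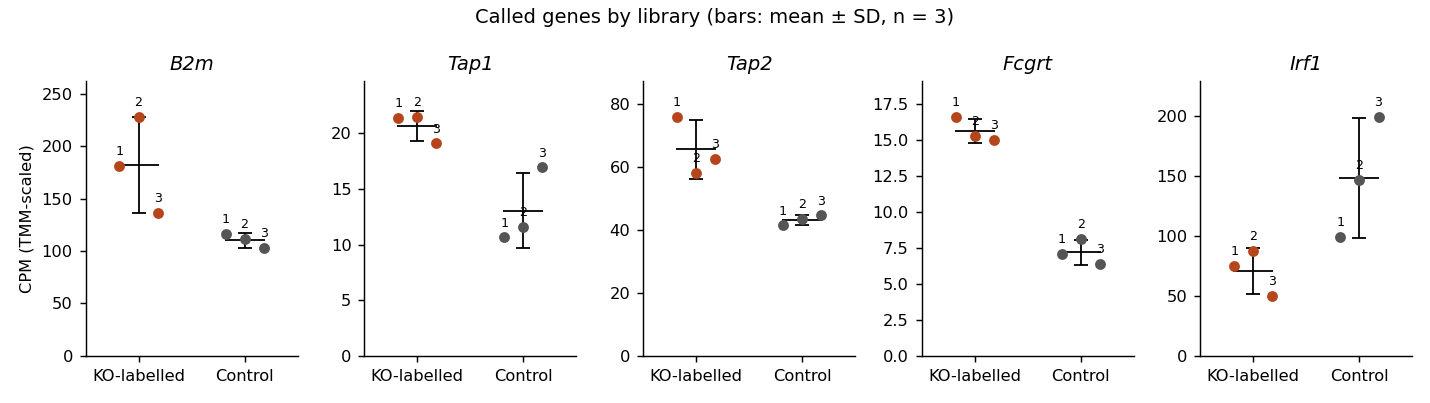
CPM of the members that rose (B2m, Tap1, Tap2) and of 2 further pathway genes that were called (Fcgrt, Irf1), one point a library with its replicate number, bars at the mean ± SD (n = 3). Knockout-labelled libraries sit above the control libraries for the first 4 genes and below them for Irf1.

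The gene that faces Tap1 was not called. Psmb9, an immunoproteasome subunit, is read in the other direction from a start 225 bases from that of Tap1, so that both share 225 bases of promoter. Psmb9 had 10.5, 13.9 and 8.02 CPM in knockout-labelled libraries, against 7.82, 11.2 and 8.82 CPM in control libraries (log2 fold change 0.22 ± 0.21, adjusted p = 0.547), and the groups overlapped. Whether the changes of the pair differ from each other was not tested. Psmb8, the subunit next to them on the chromosome, had 26.3, 29.0 and 19.2 CPM in knockout-labelled libraries, against 14.4, 22.7 and 20.4 CPM in control libraries (log2 fold change 0.37, adjusted p = 0.242). Psmb10, the subunit encoded on chromosome 8, had 19.1, 20.7 and 14.1 CPM in knockout-labelled libraries, against 12.5, 18.8 and 17.3 CPM in control libraries (log2 fold change 0.15, adjusted p = 0.653). In each of the 3 immunoproteasome subunits knockout-labelled library 3 and control library 1 were the lowest of their groups.

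The loading and trimming factors gave no call. Tapbp, which holds the empty class I molecule at the transporter, had 288, 300.3 and 286 CPM in knockout-labelled libraries, against 259, 268 and 317 CPM in control libraries (log2 fold change 0.05 ± 0.12). Erap1, the peptidase that trims peptides in the endoplasmic reticulum, had 53.4, 55.3 and 59.2 CPM in knockout-labelled libraries, against 60.6, 67.1 and 60.8 CPM in control libraries. It was the 1 member lower in every knockout-labelled library, by a small amount that was not called (log2 fold change −0.17 ± 0.09, adjusted p = 0.282). H2-Ke6, the enzyme gene inside the region, had 26.9, 26.2 and 29.9 CPM in knockout-labelled libraries, against 26.7, 28.6 and 28.6 CPM in control libraries (log2 fold change −0.02), and 70.5% of the stretches of 50 bases in its transcripts also occur in the annotated gene Gm20427.

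Both transactivators were near the detection limit. Nlrc5, the class I transactivator, had 24, 37 and 7 counts in knockout-labelled libraries, against 8, 14 and 6 counts in control libraries (log2 fold change 1.40 ± 0.62, adjusted p = 0.182). Ciita, the class II transactivator, had 19, 53 and 21 counts in knockout-labelled libraries, against 6, 10 and 22 counts in control libraries (log2 fold change 1.46 ± 0.57, adjusted p = 0.140). For both, knockout-labelled library 2 was the highest and the groups overlapped.

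No class II gene passed the test, although all 8 that were tested had a log2 fold change above 0, with a median of 0.60, and 4 had an unadjusted p under 0.05, as did 26.5% of all genes tested. Knockout-labelled library 2 was the highest of the 6 libraries for all 8, and for all 10 class II rows with any count, whereas it was the highest for 12.2% of all genes tested. Without that library the median was 0.26, and H2-Eb1 turned to −0.01. DESeq2 on the same counts called 3 of the class II members, H2-DMa (adjusted p = 0.0453), H2-DMb1 (0.0132) and H2-Ob (0.0178). DESeq2 also made more calls over the whole table. There 958 genes rose and 700 fell of 18015, against 568 and 361 of 13736 by the edgeR test.

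The surface chains and the invariant chain were the most abundant class II transcripts. Cd74, on chromosome 18, had 301, 533 and 238 CPM in knockout-labelled libraries, against 259, 273 and 261 CPM in control libraries (log2 fold change 0.43 ± 0.25, adjusted p = 0.289). H2-Ab1, the β chain of the I-A molecule, had 127, 203 and 102 CPM in knockout-labelled libraries, against 103, 111 and 108 CPM in control libraries (0.43 ± 0.21, adjusted p = 0.223). H2-Aa, its α chain, had 95.1, 156 and 68.7 CPM in knockout-labelled libraries, against 76.5, 79.6 and 73.2 CPM in control libraries (0.48 ± 0.24, adjusted p = 0.229). In all 3 genes knockout-labelled library 2 was at 1.90 to 2.04 times the control mean, and knockout-labelled library 3 was below every control library. H2-Eb1, the β chain of the I-E molecule, had 70.0, 127 and 52.8 CPM in knockout-labelled libraries, against 55.7, 62.6 and 65.8 CPM in control libraries (0.44 ± 0.26, adjusted p = 0.310). Its α chain partner is listed as a pseudogene, H2-Ea-ps, and had no count in any library. The chains kept nearly the same proportions in every library: Cd74 over H2-Ab1 was 2.37, 2.62 and 2.33 in knockout-labelled libraries and 2.52, 2.46 and 2.43 in control libraries. The sum of the 11 class II rows was 609, 1061 and 486 CPM in knockout-labelled libraries, against 506, 540.0 and 521 CPM in control libraries. Without knockout-labelled library 2 the log2 fold changes were 0.02 for Cd74 and 0.09 for each of H2-Aa and H2-Ab1.

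**Figure D4:**
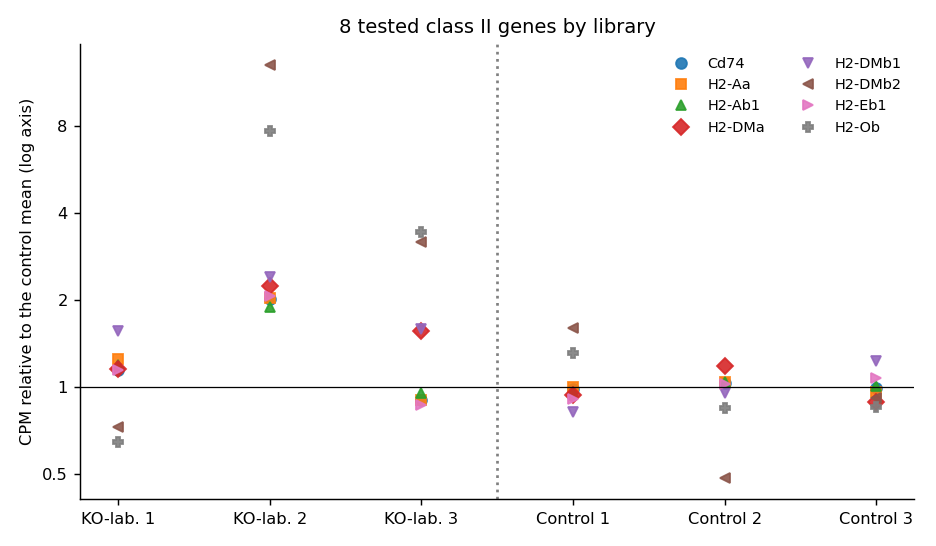
CPM of the 8 tested class II genes in each library relative to the control mean of the gene, on a log axis. Knockout-labelled library 2 holds the highest value of every gene, and H2-DMb2 and H2-Ob reach 13.1 and 7.69 times their control mean there.

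The peptide-loading chains of class II did not all follow the surface chains. H2-DMb1, a β chain of the DM peptide editor, had 6.91, 10.6 and 7.01 CPM in knockout-labelled libraries, against 3.61, 4.21 and 5.42 CPM in control libraries. It was the class II gene whose groups did not overlap, with a log2 fold change of 0.89 ± 0.23 and an adjusted p of 0.0510, just outside the threshold. It passed in 4 of 8 alternative settings that kept all libraries, with adjusted p of 0.0132 to 0.0599 over the 8, and in none of the 6 that left a library out (0.0763 to 0.157). H2-DMa, the α chain of DM, had 7.66, 14.9 and 10.4 CPM in knockout-labelled libraries, against 6.25, 7.83 and 5.89 CPM in control libraries (0.72 ± 0.24, adjusted p = 0.0902). Here knockout-labelled library 3 was well above the controls, unlike for Cd74 and the I-A chains.

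H2-DMb2, the other DM β chain, and H2-Ob, the β chain of the DO inhibitor that is best known from B cells, had the largest fitted changes and the widest errors of the 8 tested class II genes. H2-DMb2 had 10, 169 and 38 counts in knockout-labelled libraries, against 21, 7 and 14 counts in control libraries (log2 fold change 2.51 ± 0.87, adjusted p = 0.104). H2-Ob had 13, 145 and 60 counts in knockout-labelled libraries, against 25, 18 and 19 counts in control libraries (1.97 ± 0.70, adjusted p = 0.109). In both, knockout-labelled library 1 was within or below the control range, library 2 was far above it and library 3 was above it. Without knockout-labelled library 2 the log2 fold changes were 0.94 for H2-DMb2 and 1.005 for H2-Ob. H2-Oa, the α chain of DO, did not pass the filter and had 8, 45 and 21 counts in knockout-labelled libraries, against 7, 5 and 10 counts in control libraries. H2-Eb2 had 0, 15 and 5 counts in knockout-labelled libraries, against 1, 2 and 0 counts in control libraries. H2-DMb1 and H2-DMb2 share 22.7% of the 50-base stretches of the first, so some reads could fit either, yet H2-DMb2 over H2-DMb1 was 0.0637, 0.748 and 0.275 in knockout-labelled libraries and 0.269, 0.0693 and 0.102 in control libraries.

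The order of the class II libraries was set beside markers of the cells that make class II. In lymphocyte markers, knockout-labelled library 2 was also the highest for 7 of 7 B cell genes and for 7 of the 8 T and NK cell genes with a count. Ms4a1, a B cell surface protein (CD20), had 0.176, 18.4 and 2.69 CPM in knockout-labelled libraries, against 2.36, 0.167 and 0.119 CPM in control libraries, and is named here after its values were seen. Cd79a, part of the B cell receptor, had 4.84, 28.2 and 7.72 CPM in knockout-labelled libraries, against 9.40, 16.3 and 9.26 CPM in control libraries. No B cell marker was called, 5 of 7 being tested, and none was at 0 in every library. The T and NK cell sum was 4.796, 20.5 and 8.94 CPM in knockout-labelled libraries and 4.86, 3.25 and 1.58 CPM in control libraries. Of the 9 T and NK cell genes, 6 were tested and 1 rose (Cd4, named after its call was seen), Cd3e gave no call (log2 fold change 2.12, adjusted p = 0.186), and Klrb1c, a defining NK cell gene, was at 0 in all libraries. The part of lymphocytes in the class II values was not tested.

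Macrophage genes, 15 in the list, were spread over the knockout-labelled libraries. Library 2 was the highest of all libraries for 7 of them, library 1 for 4 and library 3 for 4. Their sum was 331, 414 and 315 CPM in knockout-labelled libraries, against 189, 191 and 194 CPM in control libraries. Within the knockout-labelled group this is the order of the class II sum. The B cell, T and NK cell and dendritic cell sums also peaked in knockout-labelled library 2, but were lowest of that group in library 1. These orders were not tested. Cd68, a lysosomal membrane protein of macrophages, had 13.4, 11.3 and 18.8 CPM in knockout-labelled libraries, against 3.19, 4.21 and 3.56 CPM in control libraries, and rose (log2 fold change 1.98 ± 0.22, adjusted p = 0.00543). Adgre1, which encodes the F4/80 antigen of macrophages, had 8.93, 8.79 and 10.5 CPM in knockout-labelled libraries, against 6.39, 4.17 and 4.47 CPM in control libraries, and also rose (0.91 ± 0.20, adjusted p = 0.0315). Both are among the 4 that were highest in knockout-labelled library 3, which was the lowest of all 6 libraries for Cd74, H2-Aa, H2-Ab1 and H2-Eb1. Lyz2, a lysozyme of myeloid cells named here after its values were seen, had 60.3, 105 and 44.7 CPM in knockout-labelled libraries, against 20.7, 16.3 and 26.3 CPM in control libraries, and peaked in library 2 as class II did. The class II sum over the macrophage and myeloid sum was 1.84, 2.56 and 1.54 in knockout-labelled libraries, against 2.68, 2.83 and 2.68 in control libraries. The class I sum over the same sum was 2.36, 2.21 and 2.56 in knockout-labelled libraries, against 3.49, 3.70 and 3.65 in control libraries. Both ratios were lower in every knockout-labelled library than in every control library. Ptprc (CD45), carried by nearly all blood-derived cells, had 5.32, 20.8 and 8.38 CPM in knockout-labelled libraries, against 5.28, 3.38 and 3.44 CPM in control libraries (1.52 ± 0.44, adjusted p = 0.0643).

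Dendritic cell markers were low and mixed. Their 10 genes summed to 23.5, 46.2 and 24.8 CPM in knockout-labelled libraries and 18.7, 13.3 and 15.5 CPM in control libraries, with 6 tested and none at 0 in every library. Irf8 rose and Siglech fell, both named after their calls were seen. Itgax (CD11c) had 3.08, 7.002 and 4.27 CPM in knockout-labelled libraries, against 3.80, 3.08 and 4.31 CPM in control libraries (log2 fold change 0.36, adjusted p = 0.494). Endothelial cells carry much class I, and of their 9 markers 8 were tested and 3 rose, among them Pecam1 (49.6, 51.3 and 45.8 CPM in knockout-labelled libraries, against 26.3, 32.1 and 29.2 CPM in control libraries). The endothelial sum was 439 to 515 CPM in knockout-labelled and 304 to 410 CPM in control libraries, with no marker at 0 in every library. Stellate and fibroblast markers summed to 408, 346 and 296 CPM in knockout-labelled libraries, against 69.8, 149 and 293 CPM in control libraries, with 7 of 7 tested, none at 0, and Dcn, Lum and Pdgfra higher by the test. Duct markers summed to 571, 411 and 371 CPM in knockout-labelled libraries, against 293, 322 and 262 CPM in control libraries, with 6 of 7 tested, none at 0 in every library, and Spp1 higher by the test. These 4 genes are named after their calls were seen. The part of macrophages, dendritic cells, endothelial, stellate, acinar and duct cells in the B2m, Tap1, Tap2 and class II values was not tested.

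**Figure D5:**
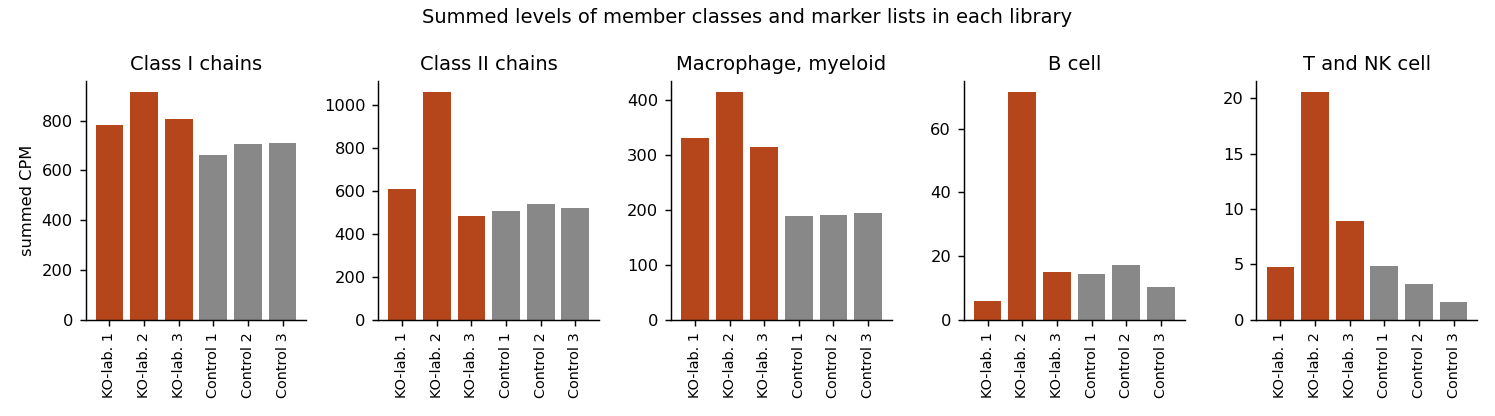
Summed CPM of the class I and class II members and of the macrophage and myeloid, B cell, and T and NK cell marker lists in each library. All 5 sums peak in knockout-labelled library 2, and the class I and the macrophage and myeloid sums are higher in all 3 knockout-labelled libraries than in the control libraries.

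Among the other genes of the class I route, 1 was called. Of 21 genes for interferon signalling, the constitutive proteasome, its activators, peptidases and the chaperones of the endoplasmic reticulum, all were tested. None rose and 1 fell, while 4.14% of all genes tested rose and 2.63% fell. The median log2 fold change was 0.09. In the edgeR test, 28.6% of the list and 26.5% of all genes tested had an unadjusted p under 0.05. The gene that fell was Irf1, an interferon-induced transcription factor that binds the class I promoter element, with 75.0, 87.5 and 49.9 CPM in knockout-labelled libraries, against 99.2, 147 and 199 CPM in control libraries (log2 fold change −1.07 ± 0.25, adjusted p = 0.0385). It was lower in every knockout-labelled library, in the direction opposite to B2m, Tap1 and Tap2. Irf1 kept its call without control library 1 or knockout-labelled library 2 (adjusted p = 0.0199 and 0.0392) and lost it without any other library (0.0935 to 0.115). The constitutive subunit Psmb5, which Psmb8 replaces, had 36.5, 35.8 and 45.8 CPM in knockout-labelled libraries, against 32.6, 28.5 and 30.3 CPM in control libraries (0.37 ± 0.12, adjusted p = 0.0877; named after its values were seen).

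The other genes of the class II route gave no call in 14 tested of 15, with a median log2 fold change of 0.28. Rfx5, a subunit of the complex that binds the X box, had 17.2, 16.6 and 18.1 CPM in knockout-labelled libraries, against 15.6, 16.9 and 18.4 CPM in control libraries (log2 fold change 0.03). Ctss, the protease that removes the invariant chain in antigen-presenting cells, had 42.8, 53.5 and 38.9 CPM in knockout-labelled libraries, against 28.4, 31.5 and 37.5 CPM in control libraries (0.47 ± 0.14, adjusted p = 0.0744). Ifi30, a reductase that opens disulfide bonds of antigens, had 10.3, 11.7 and 10.3 CPM in knockout-labelled libraries, against 6.20, 9.08 and 6.05 CPM in control libraries (0.59 ± 0.18, adjusted p = 0.0775). For Ctss and Ifi30 the groups did not overlap, with every knockout-labelled library above every control library. That held for 6 of the 14 tested genes of this list (16.9% of all genes tested), and the opposite for 2 of them (15.2% of all genes tested).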

How the data were processed

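RNA of isolated pancreatic islets was measured in 3 knockout-labelled and 3 control libraries. Per the labels' protocols, 10 ng of total RNA was copied with poly-dT priming and SMART-Seq v4 chemistry, sheared and made into Ion Plus Fragment libraries. Poly-dT priming reads polyadenylated RNA, rare transcripts are noisy at such input, and shearing without a strand mark leaves antisense reads mixed in. Per the submitters' processing notes, the build was mm10 and the tools were edgeR, featureCounts, Subread 1.5.0 and STAR 2.4.2a. For the annotation, strand and multi-mapping settings, the answer is not given in the sources used here. What was deposited holds raw counts per gene, not normalized, with exon coordinates per the file headers, and each library was matched to its column by title.

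Counts were fitted in edgeR 4.0.16 (R 4.3.3) by the quasi-likelihood test over the whole table, with TMM scaling, the tool's default filter on low counts by group and Benjamini-Hochberg adjustment, threshold 0.05. CPM was computed on TMM-scaled totals, and ± after a log2 fold change is its SE. The test was checked on simulated counts. Alternatives were other scalings, other filters, DESeq2 1.42.0, limma-voom 3.58.1, a replicate block and leaving out each library. Every tested member is named; other pathway genes are named when called or when in a short set (Irf1, Rfx5, Ctss, Ifi30), and so are 7 markers; a further gene of that set is not reported here. Other genes named outside these rules are said to be so beside their values. Members and lists were chosen with earlier results of these data known. Same-group libraries differed far beyond sampling noise (chi-square per degree of freedom 11.24 to 52.21), so none was merged with another as a repeated deposit; this does not tell biological from technical spread. The limit of 3 counts for a count of 0 covers counting error only. Exon overlap came from the deposited coordinates, and promoters and 50-base stretches from reference tables and transcripts of the same build.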

Additional observations from a re-analysis of the deposited data

How the results depend on the processing

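B2m and Tap2 were called under all 8 alternatives that kept every library, and Tap1 under 7. Same-numbered libraries of the 2 groups showed no shared deviation (correlations −0.04, −0.01 and 0.05). With 3 libraries a group this cannot exclude a pairing by number. With the replicate block, 1 processing gene rose instead of 2, Tap1 having an adjusted p of 0.0558, and 0 other class I pathway genes fell, Irf1 having 0.0550. Class II genes that rose numbered 1 with upper-quartile factors, with no expression filter and with the filter of 1 CPM in 3 libraries, and 3 with DESeq2. Other class II pathway genes that rose numbered 1 with no filter and 3 with DESeq2, and 2 other class I pathway genes fell with DESeq2. Over the whole table, 620 genes fell with no filter, and 958 rose and 700 fell with DESeq2.

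Left out one at a time, the libraries gave 0 to 1 class I genes and 0 to 1 processing genes that rose, 0 to 1 other class I pathway genes that fell, and 56 to 534 genes that rose and 8 to 434 that fell over the whole table. These fits hold fewer libraries. Among named genes, the sign turned for the 10 that follow. H2-Q2 was −0.0027 with RLE factors, −0.0085 with acinar and hormone genes left out, −0.020 with no filter, −0.0091 with DESeq2, −0.0054 with limma-voom and −0.0031 with the block; H2-Ke6 was 0.011 with upper-quartile factors. Cd79a was −0.15 with limma-voom and −0.085 with the block. With libraries left out, log2 fold changes ran from −0.069 to 0.089 for H2-Q2, −0.010 to 0.29 for Psmb10, −0.010 to 0.13 for Tapbp, −0.030 to 0.076 for Rfx5, −0.015 to 0.47 for H2-Q4, −0.078 to 0.010 for H2-Ke6, −0.0097 to 0.68 for H2-Eb1, −0.014 to 0.39 for Psmb9, −0.038 to 0.59 for Itgax and −0.91 to 0.63 for Cd79a. The causes were not tested. Ciita and Nlrc5 had at most 53 counts in any library, and 26 members had too few counts to be tested.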

Other observations

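Class I-like proteins that lie outside the complex share the class I fold but mostly do not present peptides. Of 7 such genes, 5 were tested and 1 rose. Fcgrt, the heavy chain of the neonatal Fc receptor, which pairs with β2-microglobulin and recycles immunoglobulin G and albumin, had 16.6, 15.3 and 14.98 CPM in knockout-labelled libraries, against 7.08, 8.13 and 6.41 CPM in control libraries. The groups were far apart, the log2 fold change was 1.12 ± 0.14 (adjusted p = 0.00720), and the call held in all 6 fits that left out a library. The other 4 tested genes, named here after their values were seen, gave no call. Procr, the endothelial protein C receptor, had 1.41, 1.36 and 1.73 CPM in knockout-labelled libraries, against 1.02, 0.708 and 0.514 CPM in control libraries, with no overlap (log2 fold change 1.01 ± 0.40, adjusted p = 0.141). Mr1, which shows microbial vitamin metabolites, had a log2 fold change of −0.33 (adjusted p = 0.253), and Hfe, the iron-regulating partner of the transferrin receptor, one of −0.04 (adjusted p = 0.836). Cd1d1, a presenter of lipids, had a log2 fold change of 0.87 (adjusted p = 0.344) at 0.660 to 1.80 CPM in knockout-labelled and 0.277 to 0.926 CPM in control libraries.

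Within class I, H2-D1 over H2-K1 counts kept a narrow range, 0.442, 0.419 and 0.451 in knockout-labelled libraries and 0.443, 0.408 and 0.417 in control libraries. B2m over H2-K1 was 0.547, 0.595 and 0.370 in knockout-labelled libraries and 0.397, 0.340 and 0.303 in control libraries, with knockout-labelled library 3 inside the control range. The immunoproteasome subunit Psmb8 over its constitutive counterpart Psmb5 was 0.720, 0.811 and 0.419 in knockout-labelled libraries and 0.441, 0.797 and 0.675 in control libraries, with no separation of the groups.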
